A study of Rattus norvegicus with 6 samples.

Results

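Antioxidant enzymes are described here in retinal ganglion cells, which carry visual signals from the retina through the optic nerve to the brain. The genes were chosen by name: every probe set whose annotation gives a single symbol among Sod1, Sod2, Cat, Gpx1, Gpx4, Prdx1, Prdx2, Prdx5, Gclc and Hmox1. This gave 11 probe sets for 9 genes, of 14217 genes with a singly annotated probe set. Prdx1 had no such probe set and is not analysed here.

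The study used 3 adult male Brown Norway rats in which saline injected into an episcleral vein had raised the pressure of 1 eye for 10 days, a model of glaucoma. Ganglion cells of both eyes were marked by Fluorogold from the superior colliculus, and 2000 of them were laser-captured per eye for 1 Affymetrix array, so that each rat gave an array of its right eye (OD, n = 3) and of its left eye (OS, n = 3). The labels do not say which eye had raised pressure. Each difference below is therefore left minus right within a rat, and whether it runs towards or away from the injected eye is unknown. Had the injected side not been the same in every rat, pressure effects would offset each other in the means. All 6 arrays share the strain and the labelling procedure, and Fluorogold labelling depends on transport along the axon.

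Cells remove superoxide, a by-product of respiration, in steps. Superoxide dismutases turn it into hydrogen peroxide, and catalase, glutathione peroxidases and peroxiredoxins then reduce the peroxide. Glutathione, whose synthesis is limited by an enzyme with Gclc as catalytic subunit, feeds the glutathione peroxidases, and Hmox1 breaks down haem when cells are stressed. Ganglion cells depend heavily on mitochondria, and oxidative stress in glaucoma has therefore been studied widely.

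Intensities were scaled by the authors to a common mean, and the median value per array lay between 313.3 and 369.4. Bacterial control probe sets with no added target gave each array a background limit, their 95th percentile, of 260.5 to 590.8. The limit was highest on both arrays of rat 2. In rats 1 and 3 it was higher on the OS array (399.6 and 409.2) than on the OD array (260.5 and 292.9). Of the 66 member values, 36 exceeded the limit of their array, 21 of 33 on OD and 15 of 33 on OS arrays. Of the 11 probe sets, 9, 4 and 8 lay above it on the right eye arrays of rats 1 to 3, and 5, 3 and 7 on the left eye arrays. Over all probe sets of an array the share above the limit ran from 34.8% to 58.1%. In rats 1 and 3 the OS array had the smaller share, and in rat 2 the shares were 34.8% (OD) and 34.9% (OS). Fewer enzyme values above the limit were thus seen in OS, as for the whole arrays of rats 1 and 3, where the OS limit was itself higher. The part this plays in the differences below was not tested. Of 9 ganglion cell markers on the array, 6 were above the limit on all 6 arrays and none was below it on every array.

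A total of 7 member probe sets, for 7 genes, were bright enough on average to be tested. Sod2, Gpx4 and the second probe set of Gclc were not. Of the 7, 0 differed between eyes at an adjusted p under 0.05 (limma with rat as a block; 0.0129% of all 15521 tested probe sets did), and the smallest adjusted p was 0.766. At an unadjusted p under 0.05 there were also 0, where 6.91% of all tested probe sets lay. With 3 rats the intervals given below are wide. They rest on the variance of the limma fit, taken mostly from other probe sets (19.4 prior against 2 residual degrees of freedom). Where rats differed widely, as for Sod1 and Gpx1, the interval is narrower than the spread of the 3 rats alone would give. The SD over rats is therefore printed beside each interval.

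**Figure D1:**
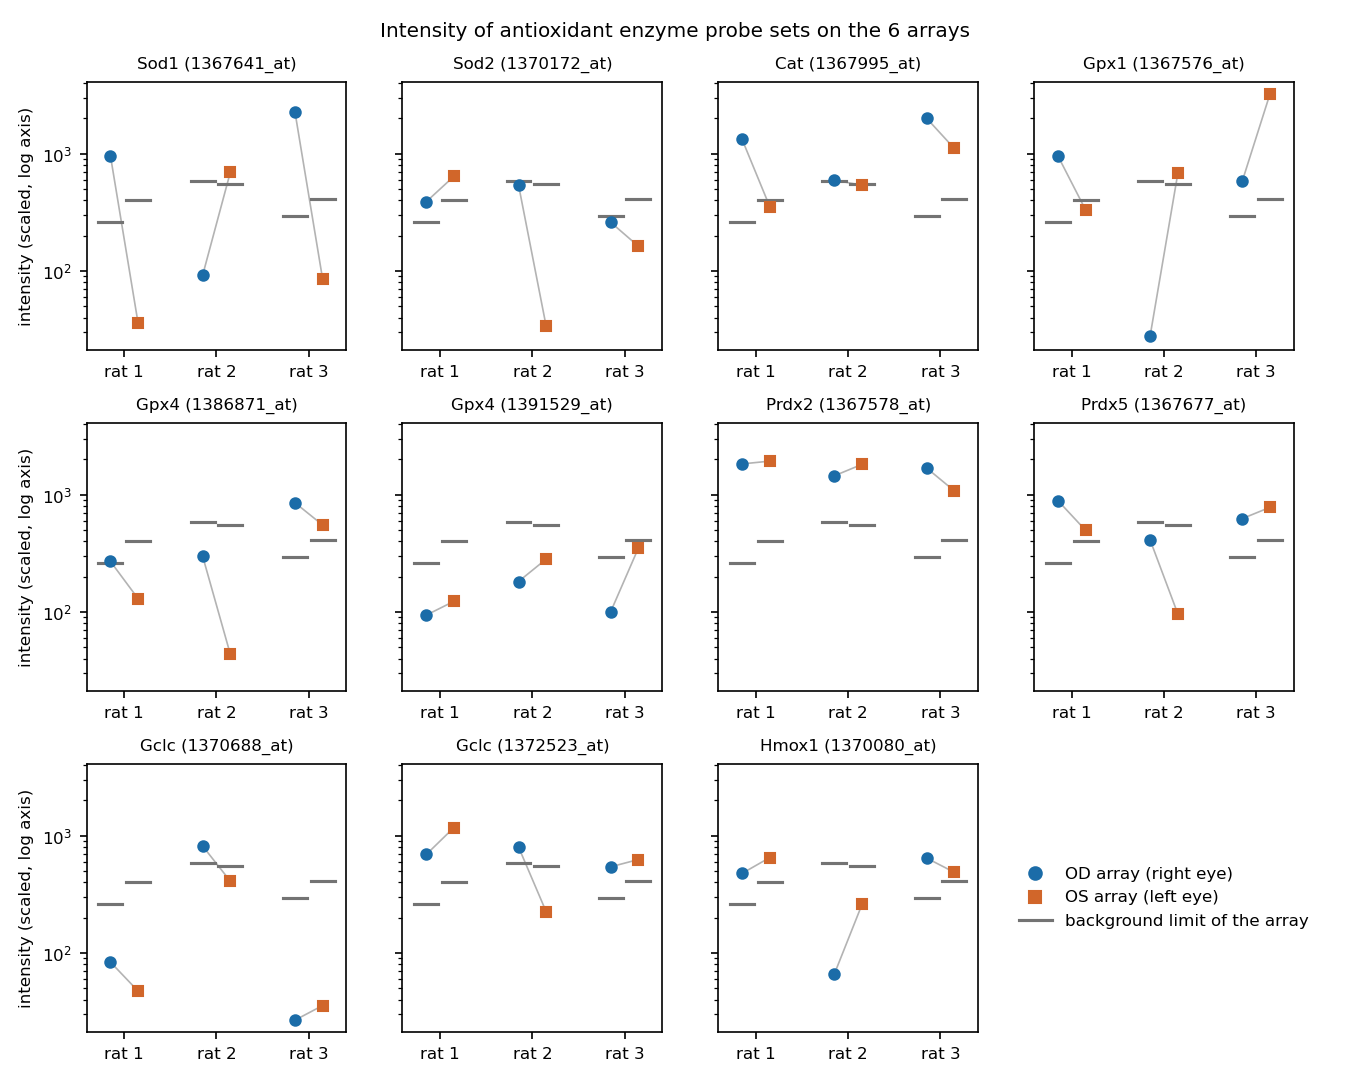
Intensity (scaled, log axis) of each of the 11 antioxidant enzyme probe sets on the 6 arrays, with the right (OD) and left (OS) eye of each rat joined by a line and a grey bar at the background limit of each array. Prdx2 lies above the limit on every array, whereas Sod1 lies above it in 1 eye and well below it in the other in each of the 3 rats.

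Among the dismutases, Sod1 (1367641_at), the copper and zinc enzyme of the cytosol, had the widest gap between the eyes of a rat. Its intensity was 958.5, 92.3 and 2286.8 in the right eyes of rats 1 to 3 and 35.9, 694.9 and 86.2 in the left eyes. In each rat 1 eye was above the background limit and the other below it, with OD the brighter eye in rats 1 and 3 and OS in rat 2. Set against the limit of the dimmer array, the brighter eye was at least 2.40-fold higher in rat 1, 1.18-fold in rat 2 and 5.59-fold in rat 3. The log2 difference averaged -2.00 ± 4.09 (SD, n = 3 rats; 95% interval -4.66 to 0.65; limma adjusted p = 0.798), so the rats disagreed by more than the mean. The difference in rat 2, 2.71, lies outside that interval. Leaving out rat 2 gave -4.36 (adjusted p = 0.166 in limma) and leaving out rat 1 gave -0.89 (adjusted p = 0.976). Sod1 was the only tested member whose eyes differed at least 4-fold in every rat in deposited intensity, whichever way, a property of 0.696% of all tested probe sets; among these, 35 had the same direction in all rats and 73 did not. At least 2-fold in every rat were Sod1 and Gpx1, 2 of 7, against 8.81% of all tested. Both folds use values below the background limit, and the larger was set after the values were seen.

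Sod2 (1370172_at), the manganese enzyme of mitochondria, read 389.7, 542.2 and 260.3 in the right eyes of rats 1 to 3 and 642.4, 33.9 and 162.7 in the left eyes. Both arrays of rat 1 lay above the limit and none of the others did. The probe set was too dim to be tested, and its log2 difference of -1.14 ± 2.14 (SD, n = 3 rats) had different directions in different rats.

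Catalase (Cat, 1367995_at), the peroxisomal enzyme that splits hydrogen peroxide, was lower in OS in each of the 3 rats, and was the only tested member with the same direction in all of them (1 of 7; 28.5% of all tested probe sets had 1 direction). Intensities were 1322.6, 595.3 and 2005.7 in the right eyes of rats 1 to 3 and 353.6, 538.3 and 1110.3 in the left eyes. The eyes of rat 2 were close, and the highest OS value exceeded the lowest OD value, so the eyes overlapped as groups. All 3 OD arrays were above the limit, against 1 of 3 in OS. The log2 difference was -0.95 ± 0.86 (SD, n = 3 rats; 95% interval -2.25 to 0.36; limma adjusted p = 0.799), which did not pass, and it was -0.49 without rat 1.

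The glutathione peroxidases are selenium enzymes that spend glutathione to reduce peroxides. Gpx1 (1367576_at), the abundant cytosolic form, had the smallest unadjusted p of the members. It read 955.5, 28.2 and 587.6 in the right eyes of rats 1 to 3 and 331.7, 680.0 and 3242.2 in the left eyes. OS was thus higher in rats 2 and 3 and lower in rat 1. The left eye of rat 1 was below the limit, and the right eye of rat 2 far below it. Set against the limit of the dimmer array, the eyes were at least 2.39-fold apart in rat 1 and 1.15-fold in rat 2. In rat 3 both eyes were above their limits, 5.52-fold apart. The log2 difference was 1.64 ± 2.81 (SD, n = 3 rats; 95% interval -0.26 to 3.55; limma adjusted p = 0.766). It was 3.20 without rat 1 and 0.48 without rat 2, so its size varied with the rats included.

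Gpx4, which reduces lipid peroxides in membranes, had 2 probe sets, both too dim to be tested, and they went opposite ways. 1386871_at was lower in OS in 3 of 3 rats, with 270.1, 298.7 and 855.0 in the right eyes of rats 1 to 3 and 130.0, 43.7 and 552.3 in the left eyes. Only both arrays of rat 3 and the OD array of rat 1 exceeded the limit. 1391529_at was higher in OS in 3 of 3 rats but below the limit on all 6 arrays, from 94.2 to 350.9, and no fold is given. The direction of Gpx4 is therefore not settled.

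Peroxiredoxins reduce peroxide through a reactive cysteine that thioredoxin restores. Prdx2 (1367578_at), the cytosolic form abundant in neurons and red blood cells, was the steadiest member and the only one above the limit on all 6 arrays. Its intensity was 1828.9, 1449.1 and 1689.7 in the right eyes of rats 1 to 3 and 1931.6, 1812.6 and 1079.1 in the left eyes. The log2 difference was -0.08 ± 0.50 (SD, n = 3 rats; 95% interval -1.11 to 0.94; limma adjusted p = 0.984). Changes of about 2-fold in either direction lie near the ends of that interval. Prdx5 (1367677_at), found in mitochondria and peroxisomes, read 889.3, 410.3 and 626.0 in the right eyes of rats 1 to 3 and 496.8, 96.5 and 780.9 in the left eyes. It was lower in OS in rats 1 and 2 and higher in rat 3, at -0.81 ± 1.12 (SD, n = 3 rats; 95% interval -2.55 to 0.93; limma adjusted p = 0.866), with both arrays of rat 2 under the limit. Without rat 2 it was -0.25, and without rat 3 -1.37.

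Gclc, the catalytic subunit of the enzyme that limits glutathione synthesis, had 2 probe sets. The brighter, 1372523_at, read 691.8, 802.2 and 543.0 in the right eyes of rats 1 to 3 and 1173.7, 225.1 and 626.5 in the left eyes. Only the left eye of rat 2 was below the limit, and it alone gave the mean its sign. The log2 difference was -0.27 ± 1.32 (SD, n = 3 rats; 95% interval -1.81 to 1.27; limma adjusted p = 0.955), 0.48 without rat 2 and -0.78 without rat 1. The dimmer, 1370688_at, exceeded the limit on 1 array, the right eye of rat 2 at 815.4, and lay between 26.8 and 409.9 on the others.

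Hmox1 (1370080_at), the stress-inducible haem oxygenase, is often taken as a sign of an oxidative stress response. It read 477.5, 66.2 and 644.9 in the right eyes of rats 1 to 3 and 651.5, 259.5 and 487.8 in the left eyes. Both arrays of rat 2 were below the limit, and where the gene was measurable the eyes differed by 1.36-fold in rat 1 and 1.32-fold in rat 3, in opposite directions. The log2 difference was 0.60 ± 1.08 (SD, n = 3 rats; 95% interval -1.41 to 2.61; limma adjusted p = 0.919), which was 0.02 without rat 2 and 1.09 without rat 3.

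**Figure D2:**
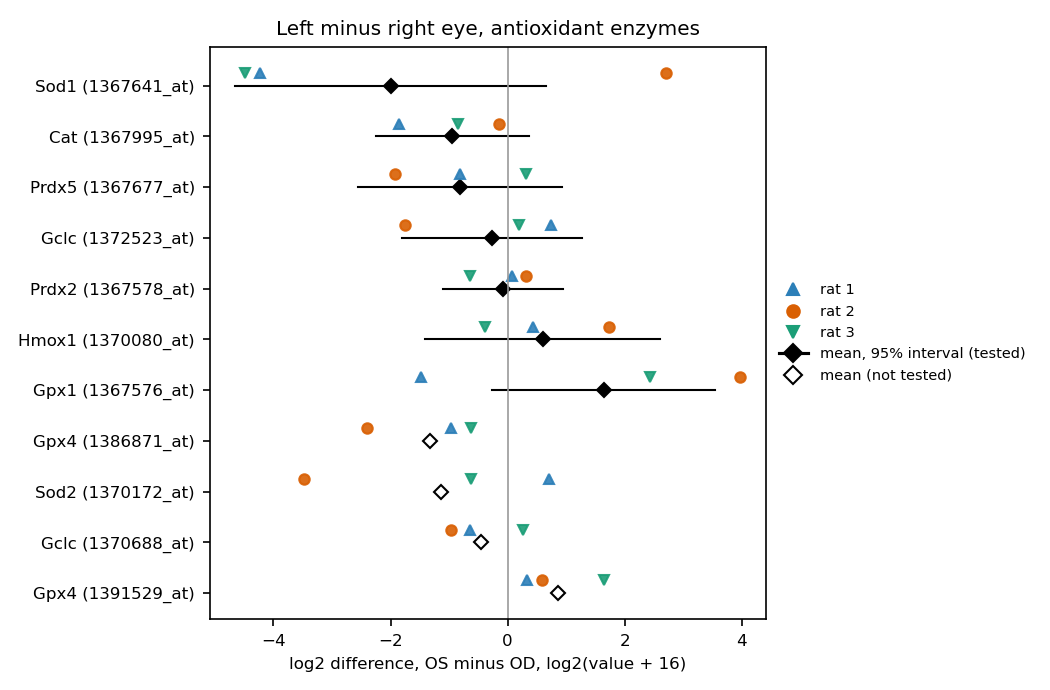
Log2 difference between the left and right eye, OS minus OD on the log2(value + 16) scale, for each probe set in each rat (coloured symbols), with the mean over rats (diamonds) and, for the 7 tested probe sets, the 95% interval of the limma fit (bars). All 7 intervals cross 0, and rat 2 lies opposite to rats 1 and 3 for Sod1 and Gclc (1372523_at).

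Across the 7 tested genes, the mean was lower in OS for 5 and higher for 2. The median log2 difference was -0.27, beside -0.07 over all 8594 tested genes, of which 53.7% were lower in OS. By rat, the median over these enzymes was -0.82, 0.32 and -0.39. With the untested genes included, which are near or below background, the median over 9 genes was -0.81. In 0 of 7 did the eyes fail to overlap, against 9.95% of all tested probe sets. The SD of the 3 within-rat differences had a median of 1.12 over the enzymes and 1.10 over all tested genes, so these genes as a group were about as variable between rats as the rest of the array. Within the group it ran from 0.50 for Prdx2 to 4.09 for Sod1.

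No difference in level between animals was called. Gpx1 averaged 10.45 over both eyes of rat 3 on the log2 scale, against 9.18 in rat 1 and 7.45 in rat 2 (unadjusted p = 0.0453, limma F test over rats, adjusted p = 0.366). Catalase averaged 10.56 in rat 3, 9.46 in rat 1 and 9.19 in rat 2 (adjusted p = 0.640). Prdx5 and Hmox1 were lowest in rat 2, at 7.77 and 7.23, where the background limit was highest. Of the 7 tested members, 0 differed between rats at an adjusted p under 0.05, against 2.51% of all tested probe sets. Unadjusted, 1 of 7 did, Gpx1, near the 13% of all tested probe sets. The rat and its sample handling cannot be told apart, since each rat gave 1 pair of arrays.

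By the distance between log2 profiles centred over the 6 arrays, the genes most like Prdx2, the member with the highest mean log2 value, were Tmem126b (root mean square distance 0.10), Dzip1 (0.13) and Sumo2 (0.13), beside a median distance of 0.92 over 8506 genes; these are genes with flat profiles. Those most like Gpx1 were Prom1 (0.57), Morn1 (0.58) and Zc3h13 (0.66), beside a median of 2.01. The likeness to Gpx1 takes in values below background.

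Genes around these enzymes gave a similar picture. Of 72 other antioxidant and redox genes listed, 71 were on the array and 43 were tested, of which 0 passed in either direction (smallest adjusted p 0.495, limma). Means in OS were lower for 24 of the 43 and higher for 19, and the median log2 difference was -0.18, or 0.01 with all 71 genes. Unadjusted, 4 lay under 0.05 (9.3%, beside 6.94% of all tested genes). The eyes of 6 did not overlap (14.0%, beside 10.5%), and 12 had the same direction in 3 of 3 rats, 9 lower and 3 higher in OS (27.9%, beside 28.7%). These shares lie near those of all tested genes. By role, the median was -0.79 for 7 genes of the thioredoxin system, -0.43 for 15 glutathione genes, 0.12 for 8 genes of haem breakdown, quinone reduction and NADPH supply, and 0.62 for 10 other genes that remove superoxide and peroxide. With the untested genes of each role included, these medians were -0.16, -0.18, -0.11 and 0.49. For 3 redox sensor genes, Keap1 among them, the median was 0.18, or 0.29 with the untested. In rats 1 to 3 the medians were -0.43, -0.79 and -0.36 for thioredoxin genes and -0.87, 0.15 and 0.21 for glutathione genes. They were -0.18, 0.18 and -0.30 for haem, quinone and NADPH genes, and -0.44, 0.02 and 1.45 for superoxide and peroxide removal. For the sensors they were -0.43, -0.11 and -0.02.

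Txn1 (1398839_at), the thioredoxin that restores peroxiredoxins, was above the limit on all 6 arrays and lower in OS in 3 of 3 rats. It read 1843.2, 1488.0 and 5024.7 in the right eyes of rats 1 to 3 and 434.5, 573.4 and 3490.0 in the left eyes. The left eye was the dimmer in every rat, although both arrays of rat 3 lay above those of the other rats on their side. The log2 difference was -1.31 ± 0.76 (SD, n = 3 rats; 95% interval -2.37 to -0.25; unadjusted p = 0.0182, limma adjusted p = 0.610).

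Glrx2 (1373675_at), a mitochondrial glutaredoxin, read 1287.5, 946.7 and 2331.1 in the right eyes of rats 1 to 3 and 686.8, 115.0 and 423.6 in the left eyes. Its eyes did not overlap as groups, and the difference was -2.06 ± 1.04 (SD, n = 3 rats; limma adjusted p = 0.495). For Glrx2 the left eye of rat 2 was below the limit, and against that limit the right eye was at least 1.73-fold higher. Idh1 (1369954_at), the cytosolic isocitrate dehydrogenase that supplies NADPH, did not overlap either. Its intensity was 1773.8, 990.7 and 2577.0 in the right eyes of rats 1 to 3 and 131.4, 862.1 and 710.3 in the left eyes, and it averaged -1.88 ± 1.70 on the log2 scale (SD, n = 3 rats; adjusted p = 0.562, limma). Leaving out rat 2 gave -2.72 for Idh1 (limma adjusted p = 0.0957), and leaving out rat 1 gave -1.02 (adjusted p = 0.966). The left eye of rat 1 was below the limit for Idh1, and against that limit the right eye was at least 4.44-fold higher.

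Of 17 glutathione transferases on the array 10 were tested, of which 0 passed; the means of 5 were lower and of 5 higher in OS, from -1.86 to 1.88, with a median of -0.12. Gsto1 had a difference of -1.86 ± 2.69, which shrank to -0.32 without rat 1, while Gstm7 (1.04 ± 0.38) and the microsomal Mgst3 (1.88 ± 1.15) were higher in OS in 3 of 3 rats without passing (SD, n = 3 rats; limma adjusted p 0.721, 0.796 and 0.753). Mgst3 was above the limit on 1 of 3 OD and 2 of 3 OS arrays. Both its values in rat 2 were below the limit, so its direction there rests on background values. Gpx8 (1.67 ± 2.62) and Park7 (1.14 ± 1.09), a redox-sensitive protein, had different directions in different rats. Gpx8 was 0.57 without rat 2 and 3.12 without rat 3, and Park7 0.63 without rat 3. Nfe2l2, the transcription factor that switches on many antioxidant genes, was above the limit on 1 array, the left eye of rat 1, and was too dim to be tested. Keap1, which holds Nfe2l2 in check, lay between 286.2 and 638.9, at 0.18 ± 0.28 (SD, n = 3 rats; limma adjusted p = 0.976).

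**Figure D3:**
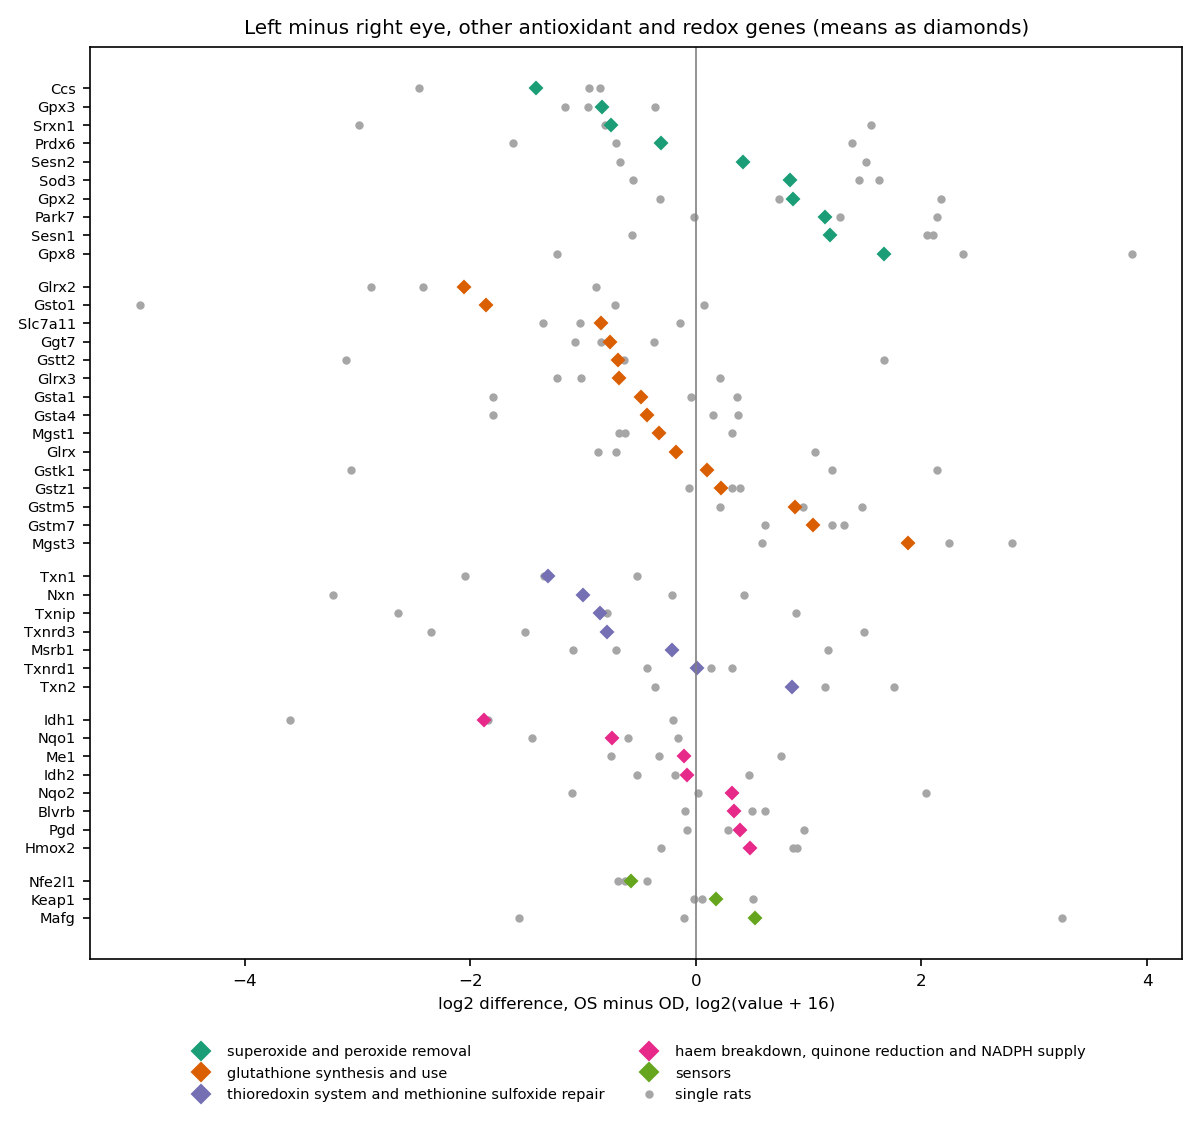
Log2 difference between the left and right eye, OS minus OD on the log2(value + 16) scale, for the 43 tested antioxidant and redox genes outside the 9 enzymes, by role (coloured diamonds are means over 3 rats, grey points single rats). Means spread on both sides of 0, from -2.06 for Glrx2 to 1.88 for Mgst3, and none passed the test.

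Nfe2l2 acts through the antioxidant response element, and its core, TGACNNNGC, was looked for on both strands of RefSeq promoter windows (250 bases before to 50 after the start, GRCr8). Windows were found for 8 of the 9 genes, not for Hmox1. By gene, 2 of the 8 held the core in any of their windows, and so did 19 of 62 other redox genes with a window. Counted by single window instead of by gene, 12.1% of all 33469 windows held it. A gene with several windows has more chances of a match, so that share is no baseline for the counts by gene. These stretches are shown because Sod2 and Prdx5 are the members with a match; they are printed along the gene's strand, 5′ to 3′, with the match in capitals, which reads as the core on the opposite strand.
Sod2 (chr1:50050184-50050213, minus strand): ggcgctgccgGCAGGGTCAgcgcctagctg
Prdx5 (chr1:213532009-213532038, minus strand): cctcctgtggGCAGAGTCAtctgcgggtgg
The Sod2 match begins 35 bases before the start, and the Prdx5 match spans it. No difference between eyes was called for either: Prdx5 did not pass and Sod2 was too dim to be tested. A match of these letters is not evidence of binding.

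Summed marker intensities of the captured cells and of other cell types are set beside these values, with no test of association. The summed intensity of 9 ganglion cell markers was 19648 to 25356 on OD and 8803 to 9599 on OS arrays, lower in OS in 3 of 3 rats. Sncg, Nefl and Slc17a6 had different directions in different rats, and the other markers of this list were each lower in OS in 3 of 3. For 6 amacrine cell markers the sum was 23637 to 62352 and 10092 to 16034, also lower in 3 of 3. Gad1, Pax6 and Calb2 were each lower in OS in 3 of 3 rats, while Gad2, Slc6a9 and Slc32a1 had different directions in different rats. The median log2 difference over the tested enzymes was -0.82, 0.32 and -0.39 in rats 1 to 3. For 4 red blood cell markers the sum was 1011 to 1515 and 2090 to 2737, higher in OS in 3 of 3 rats. However, none of the 4 was above the limit on all arrays, and only Hba-a3 was itself higher in OS in 3 of 3 rats. Hbb, Alas2 and Slc4a1 had different directions in different rats. The sums for 10 microglia and macrophage markers were 2772 to 4903 on OD and 3518 to 12551 on OS arrays, higher in OS in rats 1 and 3. Aif1 and Lyz2 were each higher in OS in 3 of 3 rats, and the other markers of this list had different directions in different rats. None of the 10 was above the limit on all arrays, and Lyz2 alone gave 8401.7 of the sum of 12551 in the left eye of rat 3. Those of 8 Müller glia and astrocyte markers (6534 to 19432 and 6824 to 16887), 6 photoreceptor markers (8263 to 29718 and 8271 to 18747) and 4 endothelial markers (1202 to 2630 and 1232 to 2148) overlapped between eyes. The sums of 5 pigment epithelium markers (6485 to 24079 and 2366 to 5517) did not, and differed by -2.71, -0.32 and -2.13 on the log2 scale in rats 1 to 3. Of these, Rpe65, Tyrp1 and Rlbp1 had different directions in different rats. Rlbp1 is counted in both the Müller glia and the pigment epithelium list, so these sums are not separate. No single marker passed the limma fit over all probe sets (0 calls; no brightness filter). The part of cell composition in the enzyme values was not tested, and fewer cells of a type and less RNA per cell cannot be told apart in such samples.

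**Figure D4:**
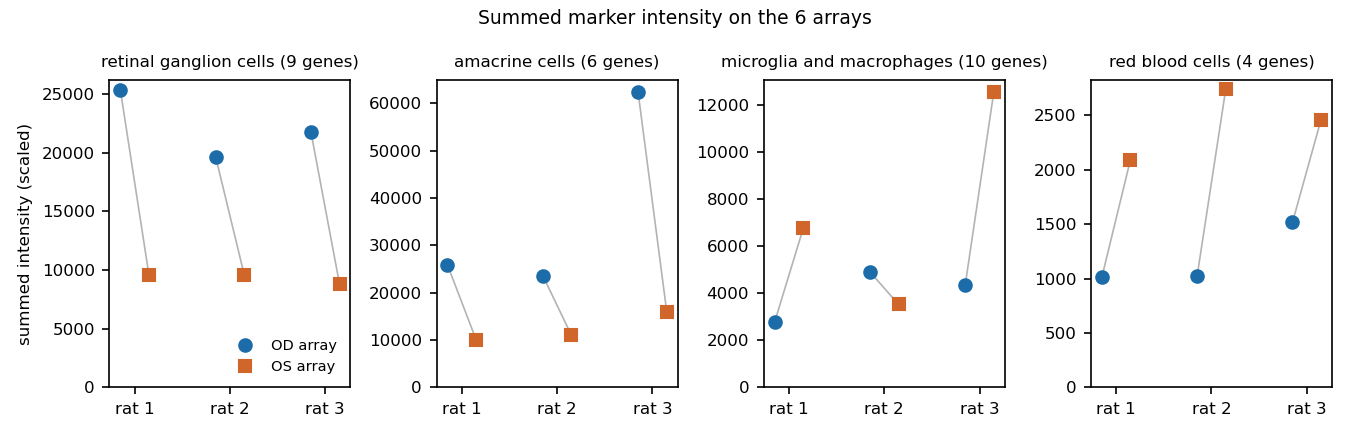
Summed scaled intensity of marker genes on the right (OD) and left (OS) eye array of each rat, for ganglion cell, amacrine cell, microglia and macrophage, and red blood cell markers, each axis starting at 0. Ganglion and amacrine cell sums are lower and red cell sums higher in OS in all 3 rats, while the microglia sum is lower in OS in rat 2.

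The ratio of the 3′ to the 5′ beta-actin control, a measure of RNA integrity and amplification, was higher in OS in each rat, at 1.13, -0.09 and 1.94 on the log2 scale in the right eyes of rats 1 to 3 and 2.93, 0.67 and 3.36 in the left eyes. The same ratio of the Gapdh control was higher in OS in rats 1 and 2 and lower in rat 3, at 1.18, 0.67 and 4.41 in the right eyes and 1.47, 1.57 and 1.83 in the left eyes. The part of either ratio in the enzyme values was not tested.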

How the data were processed

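The deposited table holds 1-colour Affymetrix intensity values on a linear scale for 6 arrays. Per the labels' protocols, captured cells' RNA was extracted with PicoPure, amplified linearly with RiboAmp HS and biotin-labelled. The submitters' processing notes name GCOS; no version is stated in the material used here. The 2% trimmed mean was 500.1 on each array, so the authors' intensity values were taken as globally scaled, and none was rescaled. Of 31099 probe sets, 57 controls were left out; 27 unspiked bacterial controls set the background limit. Genes were named from the platform annotation where it gives 1 symbol (20826 probe sets; 20758 gene identifiers were found in RefSeq's table, with 0 changed symbols).

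Values were tested as log2(value + 16), which understates changes of dim probe sets. Probe sets whose mean log2 reached the 50th percentile, 15521 in all, entered a limma 3.58.1 fit in R 4.3.3 (eye, rat as fixed block, intensity trend, 2 residual and 19.4 prior degrees of freedom, two-sided, Benjamini-Hochberg over all tested), which was tested on simulated data. All p-values are from this fit, and the F test over rats from its rat terms. Eyes are paired by animal, per the titles; deviations from group means correlated at 0.109, 0.122 and 0.326 between the eyes of rats 1 to 3. No 2 arrays were identical. A gene with several probe sets is represented in list medians by the brightest. Fold bounds use the limit of the dimmer array. The number of arrays limits the precision. Named genes are all member probe sets, the 8 other redox genes with the smallest p, Nfe2l2, Keap1, and the 3 genes nearest to the brightest and to the lowest-p member. Members and lists were chosen with earlier results of these data known. Alternatives changed the offset, normalization, filter, block, trend and rats included.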

Additional observations from a re-analysis of the deposited data

How the results depend on the processing

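The count of member probe sets past the threshold was 0 between eyes under every alternative that was run, with no filter over all 11, and so was that of the other redox genes. Between rats the member count was 0 under every alternative with rat as a fixed block; the fits without one or with a random one give no such test, and the other redox genes were not counted between rats under the alternatives. The 2 calls among all probe sets became 0 with an offset of 1, after quantile normalization, with the 75th percentile filter, with no replicate block, when the replicate block was random, and with no intensity trend, 9 with an offset of 64 and with no filter, and 17 to 52 when a rat was left out. The 390 calls between rats became 238 after quantile normalization, 152 with the 75th percentile filter, and 0 with no intensity trend. Leaving out 1 rat gave 5 to 611 of them, and the 5 came without rat 3. The member median of -0.27 ranged from -0.64 to -0.25 with 1 rat left out and that of the other redox genes, -0.18, from -0.29 to 0.20, the last without rat 1; with no filter they were -0.81 and 0.01. With 1 rat left out Gclc ranged from -0.78 to 0.48, changing sign without rat 2, and Prdx2 from -0.28 to 0.20, changing sign without rat 3. Sod1 and Mgst3 fell below the filter without rat 3, and the 75th percentile filter kept only Cat, Prdx2 and Gclc among members. The pairing changed no member's call. The cause of these changes was not tested. With 3 rats and 30 of 66 member values at or below the background limit, differences of several fold could also go uncalled, as the intervals of the dimmer members show.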
